A study of Mus musculus with 15 samples.

Results

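The insulin-like growth factor (IGF) genes were followed here in the retina of the oxygen-induced retinopathy (OIR) mouse: the ligand Igf1, the receptors Igf1r and Igf2r, and the binding proteins Igfbp2 to Igfbp7. Members were all probes that the probe-to-gene table assigned to these 9 genes, which were 14 of the 29922 probes on the array. Retinal RNA pools were set against each other on 15 two-colour arrays in 5 comparisons of 3 arrays each. All mice were wild-type C57BL/6J. OIR pups were put in 75% oxygen on postnatal day (P) 7. They were taken after 1 day in oxygen (P8-O), after 5 days in oxygen (P12-O), or after 5 days in oxygen and 1 day back in room air (P13-O). Normal pups stayed in room air and were taken at P8, P12 and P13 (P8-N, P12-N and P13-N) as age-matched controls, and at P9 and P30 (P9-N and P30-N). OIR retina was compared with age-matched normal retina at P8 (P8-O/P8-N), at P12 (P12-O/P12-N) and at P13 (P13-O/P13-N), OIR retina at P13 with normal retina at P9 (P13-O/P9-N), and normal retina at P9 with that at P30 (P9-N/P30-N). Each pool held 10 retinas from 5 mice of 1 litter, and different pools came from different litters.

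IGF1 binds the IGF1 receptor, a tyrosine kinase that signals through insulin receptor substrates, phosphatidylinositol 3-kinase and Akt to growth and survival. The IGF2 receptor has no such kinase and mainly clears IGF2 from the cell surface. Binding proteins hold IGFs in the extracellular fluid, prolong their life and either withhold them from the receptor or deliver them to it, and IGFBP7 binds IGFs only weakly and insulin more readily. In the retina, IGF1 is known as a permissive factor for VEGF-driven vessel growth, and low circulating IGF1 in preterm infants goes with retinopathy of prematurity, the disease this model stands for.

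The values are log2 ratios, so they give the level in one pool relative to the other and no absolute level. A value of 1 is a doubling. Arrays held 12008 to 21189 values each, and replicate arrays of P8-O/P8-N were the least alike, with correlations across probes as low as -0.205. In P13-O/P13-N the correlations were 0.455 for arrays 1 and 2, 0.038 for arrays 1 and 3, and 0.286 for arrays 2 and 3. Among 13 rod photoreceptor genes listed as a check of the tissue, 12 were on the array and all of these were measured in every comparison. The direction of P13-O/P9-N is the likely one only: it follows the channel order of the sample labels, where the OIR pool is channel 2 as on the remaining OIR arrays. With this direction, 10 of the 12 rod genes were higher and 0 were lower in P13-O than in P9-N, while 0 were higher and 10 were lower in P9-N than in P30-N. P13-O and P9-N differ in age as well as in oxygen history, and these cannot be told apart. The number of pools in the methods is the number that the other 4 comparisons need at 3 pools per group, so the P13-O/P9-N arrays probably carried P13-O and P9-N pools of those comparisons. Which pools they were is not given in the sources used here, and the fit has no term for shared pools. Results of P13-O/P9-N were therefore not read as independent of those of P9-N/P30-N or P13-O/P13-N. In whole-retina RNA, fewer cells of a type and less RNA per cell cannot be told apart.

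The promoter sequences of the binding proteins whose ratios moved most are printed. Igfbp7 was lower in OIR retina during oxygen at P8 and P12. Igfbp5 was higher in P13-O than in P13-N, and Igfbp3 was higher in P13-O than in P9-N. Both pools at P13 were in room air when taken, and Igfbp5 did not pass the test during oxygen at P8 or P12. The windows are the 250 bases before the annotated start in RefSeq, read 5′ to 3′ on the strand of the gene (build GRCm38.p6). Capitals mark ACGTG or GCGTG on either strand, the core letters of the element bound by hypoxia-inducible factors.
Igfbp7, chr5:77408046-77408295, minus strand: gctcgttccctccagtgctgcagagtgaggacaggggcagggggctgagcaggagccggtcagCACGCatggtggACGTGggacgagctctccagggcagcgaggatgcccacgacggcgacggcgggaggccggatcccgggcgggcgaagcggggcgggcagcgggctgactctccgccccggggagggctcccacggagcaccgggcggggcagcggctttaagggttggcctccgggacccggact
Igfbp5, chr1:72874866-72875115, minus strand: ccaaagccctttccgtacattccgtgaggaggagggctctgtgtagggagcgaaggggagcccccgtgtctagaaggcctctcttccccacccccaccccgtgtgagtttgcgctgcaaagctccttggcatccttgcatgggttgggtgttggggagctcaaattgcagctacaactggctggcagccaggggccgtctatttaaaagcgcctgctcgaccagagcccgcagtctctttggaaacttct
Igfbp3, chr11:7213924-7214173, minus strand: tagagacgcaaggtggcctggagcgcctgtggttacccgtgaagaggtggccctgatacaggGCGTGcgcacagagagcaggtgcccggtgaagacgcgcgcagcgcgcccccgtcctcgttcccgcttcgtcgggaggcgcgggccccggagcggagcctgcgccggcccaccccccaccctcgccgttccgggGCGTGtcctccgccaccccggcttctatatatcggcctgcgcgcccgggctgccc
The Igfbp7 window held 2 matches, the Igfbp3 window held 2, and the Igfbp5 window held 0. All 9 genes had a window, and Igfbp2 had 2. Of these 10 windows, 6 held at least 1 match, and the share among all 32851 promoter windows of this length was 38.6%. The highest number was 6 in the Igf2r window, followed by 4 in the first Igfbp2 window and 3 in the Igf1r window. The GC-box letters GGGCGG, searched on both strands, occurred 4 times in the Igfbp7 window and were absent from the Igfbp5 and Igfbp3 windows, with a share of 32.7% among all windows. The letters TATAAA, on either strand, stood 28 bases before the start of Igfbp4 and 148 bases before that of Igfbp6, with a share of 12.4% among all windows. These are matches of letters only, and no binding was measured.

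The members did not move as one group. Igfbp7 was lower in OIR retina during oxygen at P8 and P12, and Igfbp5 was higher after return to room air at P13. Igfbp3 was higher and Igfbp6 lower in P13-O than in P9-N. Igfbp5 and Igfbp7 were higher in P9-N than in P30-N, a comparison in which 33.8% of all probes tested were called. Of the 14 probes, 12 had a value on at least 1 array and 6 had a value on all 15. A probe was tested in a comparison with values on 2 or more arrays, and it was called at an adjusted p under 0.05 (limma, Benjamini-Hochberg over all probes tested).

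**Figure D1:**
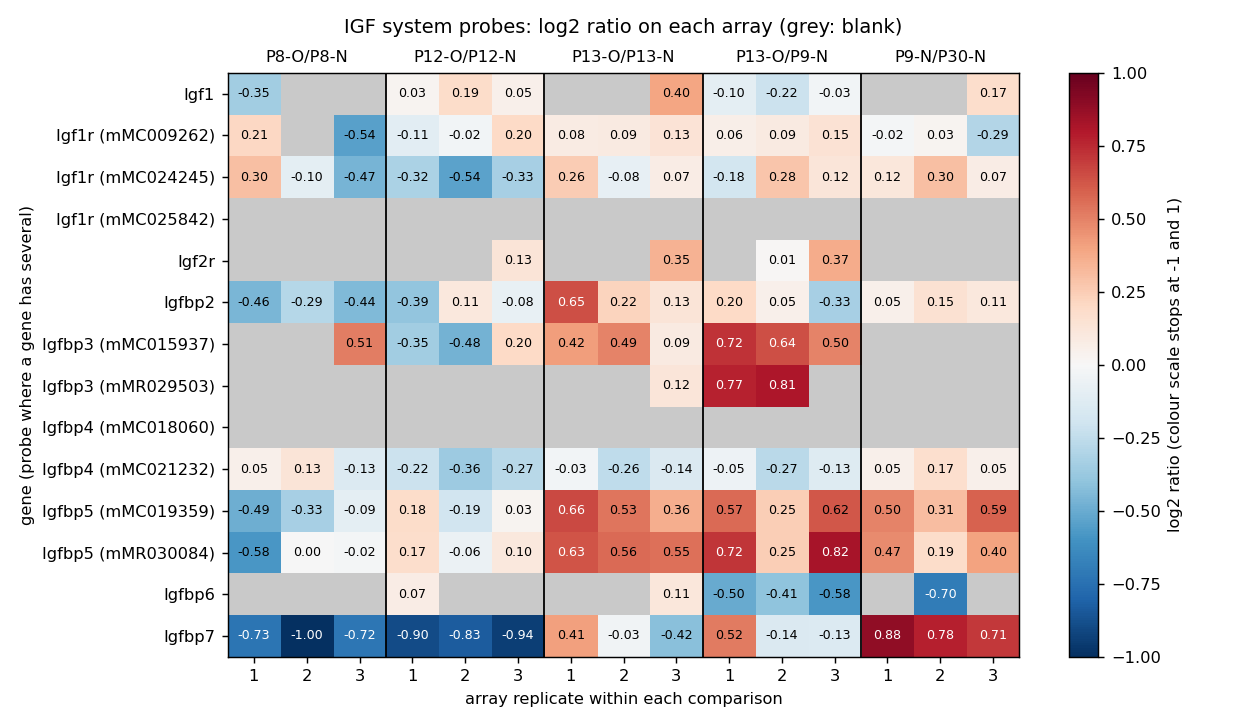
Log2 ratio of every IGF system probe (rows) on each of the 15 arrays (columns, grouped by comparison), with red for higher and blue for lower in the first-named pool and grey for blank. Igfbp7 was between -0.997 and -0.72 on all 6 arrays of P8-O/P8-N and P12-O/P12-N, and both Igfbp5 probes were at 0.36 or above on all 3 arrays of P13-O/P13-N.

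In P8-O/P8-N, 1 of 7 member probes tested was called, and it was lower. Of all probes tested, 0.637% were called, and 0.432% were called lower. In P12-O/P12-N, 2 of 9 were called, both lower, against 7.08% of all probes called and 3.88% called lower. In P13-O/P13-N, 2 of 8 were called, both higher and both of Igfbp5, against 1.51% of all probes called and 0.963% called higher. In P13-O/P9-N, 4 of 12 were called higher and 1 lower, against 8.5% of all probes called, 4.55% higher and 3.96% lower. In P9-N/P30-N, 3 of 7 were called, all higher, where 33.8% of all probes were called and 17.5% were called higher. The median log2 ratio of the member probes tested was -0.20, -0.12, 0.22, 0.09 and 0.16 in this order of comparisons, while the median of all probes tested stayed between -0.02 and 0.01. With a further requirement of a 1.5-fold change, 1, 1, 0, 3 and 1 member probes were left in the same order, against 0.403%, 1.27%, 0.734%, 2.69% and 12% of all probes. Significance Analysis of Microarrays (SAM), run at a 1% false discovery rate on probes with 3 values, called 0, 1, 1, 1 and 2 member probes, against 0.109%, 0.477%, 0.371%, 3.54% and 23.6% of all probes. With the fold cutoff SAM called 0, 1, 0, 1 and 1, against 0.109%, 0.437%, 0.293%, 2.81% and 13%.

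**Figure D2:**
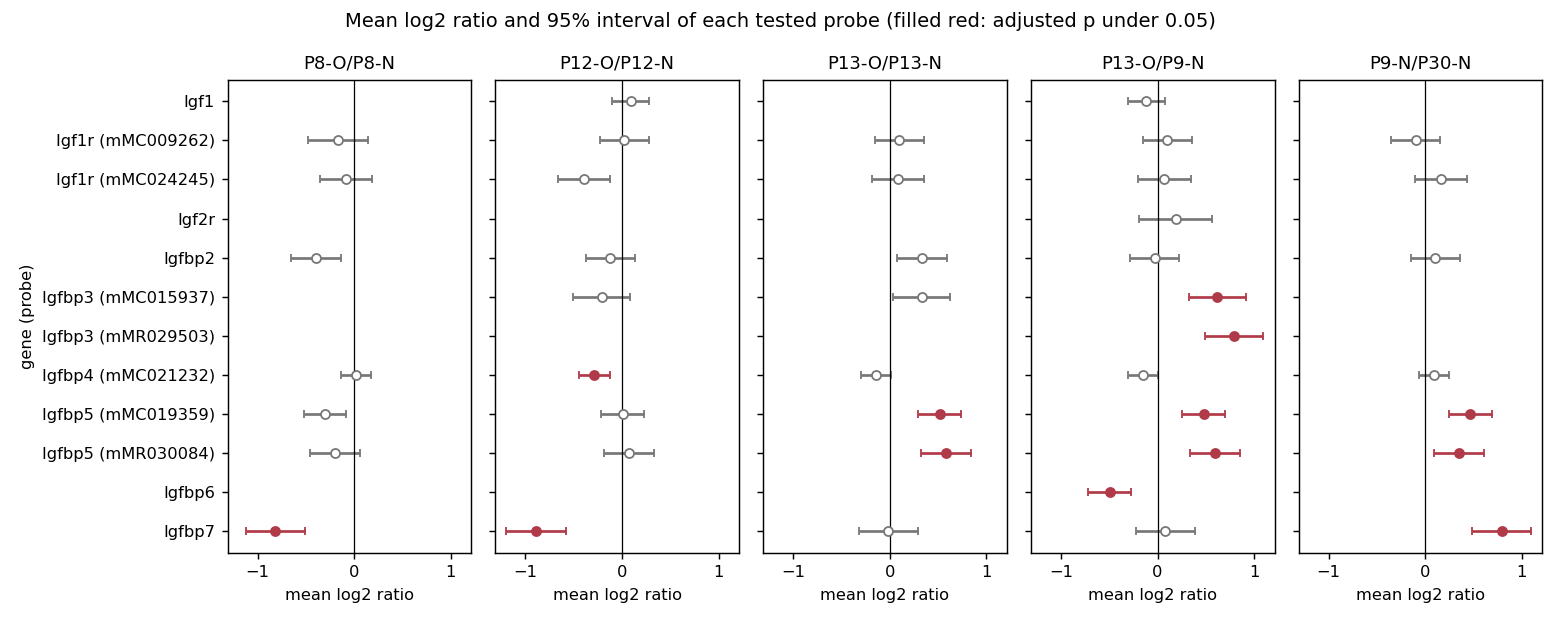
Mean log2 ratio (points) and 95% interval from the limma fit (bars) of each member probe tested (rows) in the 5 comparisons (panels), with called probes filled red. Igfbp7 stood at -0.82 and -0.89 in the first 2 panels, near 0 in the next 2, and at 0.79 in P9-N/P30-N.

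The ligand Igf1 gave few values. On P12-O/P12-N arrays its log2 ratios were 0.03, 0.19 and 0.05, with a mean of 0.09 and a 95% interval of -0.10 to 0.28 (adjusted p = 0.57). In P13-O/P9-N they were -0.10, -0.22 and -0.03, with a mean of -0.11 and an interval of -0.30 to 0.07 (adjusted p = 0.49). All 6 values lay within 0.22 of no difference, and neither mean passed the test. Single arrays gave -0.35 at P8, 0.40 at P13 and 0.17 in P9-N/P30-N, and these were not tested.

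Igf1r encodes the receptor for IGF1. Of its 3 probes, mMC025842 was blank on every array. Probe mMC024245 gave -0.32, -0.54 and -0.33 in P12-O/P12-N, with a mean of -0.40 ± 0.13 (SE, n = 3) and an adjusted p of 0.073, and it was called with array weights (adjusted p = 0.040). Probe mMC009262 gave -0.11, -0.02 and 0.20 on the same arrays, with a mean of 0.02 and an interval of -0.23 to 0.28. The probes of this gene therefore differed at P12, and over the 14 arrays on which both had a value they had the same sign on 9. In the other comparisons the means of both probes lay between -0.17 and 0.16, and none was called. Igf2r, the receptor that takes up IGF2, had 1 value at P12 (0.13), 1 at P13 (0.35) and 2 in P13-O/P9-N (0.01 and 0.37). The only comparison in which it could be tested was the last, with a mean of 0.19, an interval of -0.19 to 0.56 and an adjusted p of 0.55.

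Igfbp2 encodes a binding protein abundant in developing neural tissue. Its log2 ratios were 0.65, 0.22 and 0.13 in P13-O/P13-N, against -0.46, -0.29 and -0.44 in P8-O/P8-N. All 3 were higher in OIR retina after 1 day back in room air and all 3 lower after 1 day of oxygen. The share of all probes with such a pattern was not counted. Neither mean was called on its own, at 0.33 ± 0.12 at P13 (adjusted p = 0.26) and -0.40 ± 0.12 at P8 (adjusted p = 0.23; SE, n = 3 each). The difference between them was 0.73 ± 0.17 (P13-O/P13-N minus P8-O/P8-N, adjusted p = 0.048), where 3 of 7 member probes tested were called, against 1.5% of all probes. Leaving out any single array other than P13 array 3 raised this adjusted p to between 0.086 and 0.17. It was 0.081 with array weights, 0.061 with a replicate block and 0.20 in a separate fit. Of 12 refits, 4 kept the call and 8 lost it. At P12 the values were -0.39, 0.11 and -0.08, spread on both sides of 0. In P13-O/P9-N they were 0.20, 0.05 and -0.33, and in P9-N/P30-N they were 0.05, 0.15 and 0.11.

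Igfbp5, which in the mouse genome lies next to Igfbp2 on chromosome 1 with 0 protein-coding gene starts between them, encodes a binding protein that attaches to extracellular matrix. Probe mMC019359 gave 0.66, 0.53 and 0.36 in P13-O/P13-N, a mean of 0.52 ± 0.10 (adjusted p = 0.023). Probe mMR030084 gave 0.63, 0.56 and 0.55, a mean of 0.58 ± 0.12 (SE, n = 3, adjusted p = 0.030), about 1.5 times the level in P13-N. Both probes were thus higher in P13-O on every array. In P8-O/P8-N the values were -0.49, -0.33 and -0.09 for mMC019359 (mean -0.30, adjusted p = 0.28) and -0.58, 0.00 and -0.02 for mMR030084 (mean -0.20, adjusted p = 0.59). In P12-O/P12-N they lay on both sides of 0, from -0.19 to 0.18. No value at P8 reached the lowest value at P13 for either probe, and the share of all probes without overlap was not counted. The difference P13-O/P13-N minus P8-O/P8-N was 0.82 ± 0.15 for mMC019359 (adjusted p = 0.011) and 0.78 ± 0.17 for mMR030084 (adjusted p = 0.038). From P12 to P13 the same probes differed by 0.51 (adjusted p = 0.079) and 0.51 (adjusted p = 0.13), which was not called. The calls at P13 rested on 3 arrays and a spread shared with the other comparisons: fitted on its own arrays, P13-O/P13-N gave adjusted p = 0.22 and 0.17. Without array 1 the adjusted p was 0.18 and 0.17, without array 2 it was 0.21 for both probes, and without array 3 it was 0.023 and 0.057.

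Igfbp5 was also higher in P13-O than in P9-N and higher in P9-N than in P30-N. In P13-O/P9-N, mMC019359 gave 0.57, 0.25 and 0.62 (mean 0.48, adjusted p = 0.0099) and mMR030084 gave 0.72, 0.25 and 0.82 (mean 0.60, adjusted p = 0.0068). Array 2 was the lowest for both probes. The calls of this comparison were lost without array 1 (adjusted p = 0.079 and 0.065) or array 3 (0.087 and 0.075). In P9-N/P30-N, mMC019359 gave 0.50, 0.31 and 0.59 (mean 0.47, adjusted p = 0.0029) and mMR030084 gave 0.47, 0.19 and 0.40 (mean 0.35, adjusted p = 0.037). Only mMC019359 kept its call without each of these arrays in turn, while mMR030084 had an adjusted p of 0.17 without array 1 and 0.15 without array 3. Across all 15 arrays the probes had the same sign on 15 and differed by a median of 0.096. The difference P13-O/P13-N minus P9-N/P30-N was 0.05 for mMC019359 (95% interval -0.26 to 0.36) and 0.23 for mMR030084 (-0.14 to 0.60).

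Among 7863 probes with a gene symbol and a value on every array, the 3 other genes most like Igfbp5 (mMC019359) in their ratios were Vim, 2310045A20Rik and Zwilch. Pearson's r over the 15 arrays was 0.962, 0.906 and 0.900, and over the 9 arrays of OIR against age-matched normal retina it was 0.989, 0.946 and 0.916. Vim encodes vimentin, the intermediate filament of Müller glia and astrocytes in the retina, and also of endothelial and mesenchymal cells. Zwilch encodes a protein of the kinetochore checkpoint. Vim gave 1.42, 1.14 and 0.78 in P13-O/P13-N (mean 1.11, adjusted p = 0.00060), in the same array order as mMC019359. Of 12 listed Müller glia genes, which include Vim, 11 were measured in P13-O/P13-N, with 1 higher and 1 lower, and the medians of the list on the 3 arrays were -0.11, -0.10 and -0.16. In P13-O/P9-N, 5 of 11 were higher and 1 was lower (array medians 0.18, 0.08 and 0.02), and in P9-N/P30-N, 3 of 10 were higher and 6 were lower (-0.16, -0.44 and -0.32). Of 5 listed astrocyte genes, 0 of 5 measured were called in P13-O/P13-N (array medians 0.32, 0.21 and 0.12). In P13-O/P9-N, 1 of 5 was higher and 0 were lower (0.40, 0.13 and 0.04). In P9-N/P30-N, 1 of 4 was higher and 2 were lower (-0.26, -0.27 and -0.10). The parts of Müller glia and astrocytes in the Igfbp5 ratio were not tested. The correlations mix differences between comparisons with those between arrays of 1 comparison and are given as descriptions only. Of 16 listed genes induced by hypoxia, 11 of 15 measured were higher in P13-O than in P13-N (array medians 0.87, 1.09 and 0.43). In P8-O/P8-N, 8 of 13 were lower (-0.95, -0.54 and -0.67). Without single arrays these counts were 6 to 12 at P13 and 5 to 6 at P8. At P12, 4 of 15 were lower and 0 were higher. In P13-O/P9-N, 12 of 16 were higher and 1 was lower, and in P9-N/P30-N, 5 of 13 were higher and 5 were lower. The part of low oxygen in the Igfbp5 ratio was not tested.

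**Figure D3:**
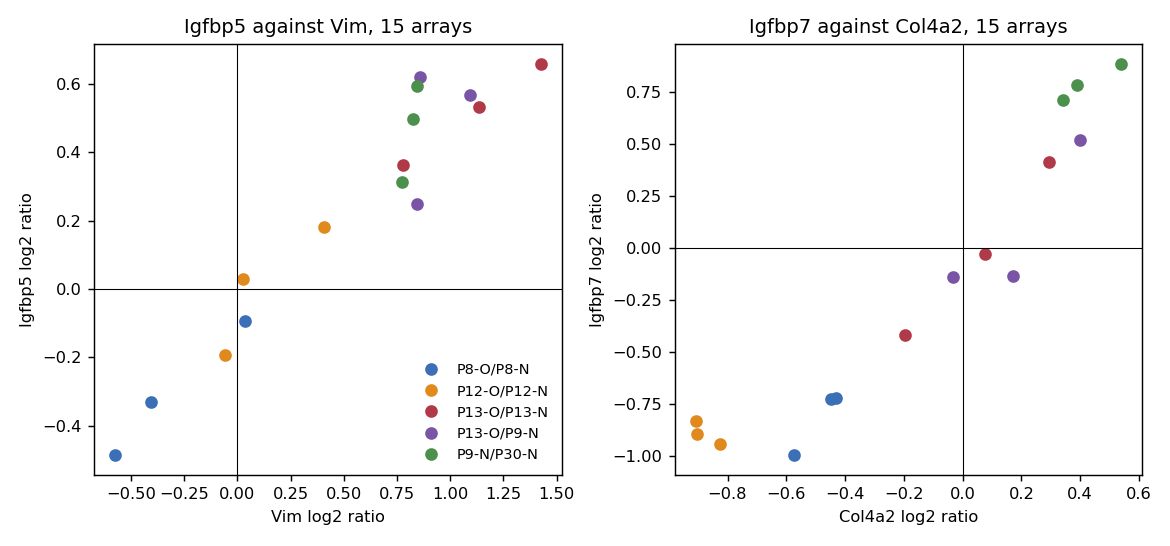
Log2 ratios of Igfbp5 (mMC019359) against Vim (left) and of Igfbp7 against Col4a2 (right), one point per array and one colour per comparison. Igfbp5 and Vim were highest together in P13-O/P13-N array 1 (0.66 and 1.42), and Igfbp7 and Col4a2 were lowest together in P8-O/P8-N and P12-O/P12-N.

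Igfbp3 encodes the main carrier of IGF in blood. In P13-O/P9-N, probe mMC015937 gave 0.72, 0.64 and 0.50, a mean of 0.62 ± 0.13 (SE, n = 3, adjusted p = 0.017), and mMR029503 gave 0.77 and 0.81 on the 2 arrays with a value, a mean of 0.79 ± 0.11 (adjusted p = 0.024). These were 1.54 and 1.73 times the P9-N level, and every measured value was higher in P13-O. Without 1 array the adjusted p of mMC015937 was between 0.053 and 0.10. Against age-matched P13-N, the values were 0.42, 0.49 and 0.09, a mean of 0.33 with an interval of 0.04 to 0.63 and an adjusted p of 0.35. At P12 they were -0.35, -0.48 and 0.20, with array 3 opposite to the other two. Single values were 0.51 at P8 for mMC015937 and 0.12 at P13 for mMR029503, and both probes were blank on all 3 arrays of P9-N/P30-N, so a difference of Igfbp3 between P9-N and P30-N was not measured.

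Igfbp6, a binding protein with a preference for IGF2, was tested in P13-O/P9-N alone. It gave -0.50, -0.41 and -0.58, a mean of -0.50 ± 0.09 (SE, n = 3, adjusted p = 0.028), so its level in P13-O was 0.709 times that in P9-N. Igfbp6 and Igfbp3 thus moved in opposite directions on the same arrays, and without 1 array the adjusted p of Igfbp6 was between 0.087 and 0.14. Single values stood at 0.07 at P12, 0.11 at P13 and -0.70 in P9-N/P30-N.

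Igfbp4 encodes a small binding protein that restrains IGF action until it is cut by the protease pregnancy-associated plasma protein A. Of its 2 probes, mMC018060 was blank on every array. Probe mMC021232 gave -0.22, -0.36 and -0.27 in P12-O/P12-N, a mean of -0.29 ± 0.07 (SE, n = 3, adjusted p = 0.035), which was 0.821 times the P12-N level. The difference was small, and leaving out any 1 of these arrays raised the adjusted p to between 0.12 and 0.14. In P13-O/P13-N all 3 values were also below 0 (-0.03, -0.26 and -0.14, adjusted p = 0.47), and in P13-O/P9-N as well (-0.05, -0.27 and -0.13, adjusted p = 0.27). At P8 they were 0.05, 0.13 and -0.13, and in P9-N/P30-N they were 0.05, 0.17 and 0.05. The genes most like Igfbp4 over the 15 arrays were C1galt1 (r = 0.867), Ankrd13b (0.837) and Pdgfa (0.837), of which Pdgfa encodes a growth factor that draws astrocytes into the retina.

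Igfbp7 encodes a secreted protein deposited around blood vessels. Its 1 probe had a value on all 15 arrays. In P8-O/P8-N it gave -0.73, -0.997 and -0.72, a mean of -0.82 ± 0.14 (adjusted p = 0.020), or 0.568 times the P8-N level. In P12-O/P12-N it gave -0.90, -0.83 and -0.94, a mean of -0.89 ± 0.14 (SE, n = 3, adjusted p = 0.0047), or 0.540 times the P12-N level. Every array of both comparisons was lower in OIR retina, and P12-O/P12-N minus P8-O/P8-N was -0.07 with a 95% interval of -0.51 to 0.36. The call at P12 held without each array in turn (adjusted p 0.015 to 0.048). The call at P8 did not, with an adjusted p of 0.069 without array 1, 0.17 without array 2 and 0.057 without array 3, although the mean stayed between -0.86 and -0.73.

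One day after return to room air the Igfbp7 values no longer lay on one side of 0. P13-O/P13-N gave 0.41, -0.03 and -0.42, a mean of -0.01 with an interval of -0.32 to 0.29 (adjusted p = 0.98), with 1 array clearly above 0, 1 near it and 1 clearly below it. All 3 lay above every value at P12, though the share of all probes without overlap was not counted. The difference P13-O/P13-N minus P12-O/P12-N was 0.88 ± 0.20 (adjusted p = 0.038), the only one of 8 member probes called in it, against 2.55% of all probes. It kept its call without P13 array 3 (adjusted p = 0.011). Leaving out any other single array of P12 or P13 gave an adjusted p between 0.061 and 0.13. The difference P13-O/P13-N minus P8-O/P8-N was 0.80 ± 0.20 and missed the threshold (adjusted p = 0.079), but passed it without P13 array 3 (1.01, adjusted p = 0.020). Of 7 member probes, 0 were called between P12 and P8 (limma; 1 had an unadjusted p under 0.05), where 0.0369% of all probes were called.

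In normal retina Igfbp7 was higher at P9 than at P30, with 0.88, 0.78 and 0.71, a mean of 0.79 ± 0.14 (SE, n = 3, adjusted p = 0.00067), or 1.73 times the P30-N level, and this call held without each array in turn. In P13-O/P9-N the values were 0.52, -0.14 and -0.13, a mean of 0.08 with an interval of -0.23 to 0.39 (adjusted p = 0.81). Array 1 was high here and in P13-O/P13-N alike, and the arrays of these comparisons may carry the same pools. The contrast of P13-O/P13-N with P9-N/P30-N sets the OIR difference at P13 against the age difference in normal whole retina. For Igfbp7 this difference was -0.80 ± 0.20 (adjusted p = 0.011), the only member probe of 7 called, against 21% of all probes.

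Endothelial genes moved with Igfbp7 in part. On a list of 23 endothelial genes that does not hold Igfbp7, 3 of 14 measured were lower at P8, 13 of 17 at P12 and 6 of 15 at P13, none was higher in these comparisons, and in P9-N/P30-N 7 of 13 were higher and 1 was lower. Without single arrays the counts of lower genes were 2 to 3 at P8, 10 to 11 at P12 and 2 to 6 at P13, and that of higher genes in P9-N/P30-N was 5 to 7. In P13-O/P9-N 2 of 15 were lower and 0 higher. The array medians of the list were -0.42, -0.27 and -0.44 at P8, -0.75, -0.71 and -0.62 at P12, -0.33, -0.34 and -0.37 at P13, and 0.39, 0.24 and 0.24 in P9-N/P30-N. Igfbp7 lay below the list median on all 6 arrays at P8 and P12, by 0.12 to 0.73. Single listed genes had means on both sides of that of Igfbp7. At P8 these included Slc38a5 (-1.16) and Plvap (0.08), and at P12 Vwf (-1.23) and Plvap (-0.36). At P13 the list median was negative on all 3 arrays while Igfbp7 stood 0.74 and 0.31 above it on arrays 1 and 2 and 0.05 below it on array 3. In P9-N/P30-N it stood 0.47 to 0.54 above the list median. The genes most like Igfbp7 were Col4a2 (r = 0.946), Egfl7 (0.943) and Anxa3 (0.943) over the 15 arrays, and 0.924, 0.938 and 0.865 over the 9 arrays of OIR against age-matched normal retina. Col4a2 encodes a chain of the type IV collagen of vessel basement membranes, and Egfl7, which is on the endothelial list, a protein secreted by endothelial cells. Other lists were counted in the same comparisons. Of 12 listed pericyte and smooth muscle genes, 0 of 7 measured were called at P8 (array medians 0.09, -0.07 and -0.39) and 2 of 8 were lower at P12 (-0.29, -0.36 and -0.42). Of the hypoxia-induced genes, 8 of 13 were lower at P8, as above, and 4 of 15 at P12 (array medians -0.30, -0.20 and -0.05), and the count at P12 was 1 to 2 without single arrays. The parts of the number of endothelial cells, of mural cells and of oxygen in the Igfbp7 ratio were not tested.

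**Figure D4:**
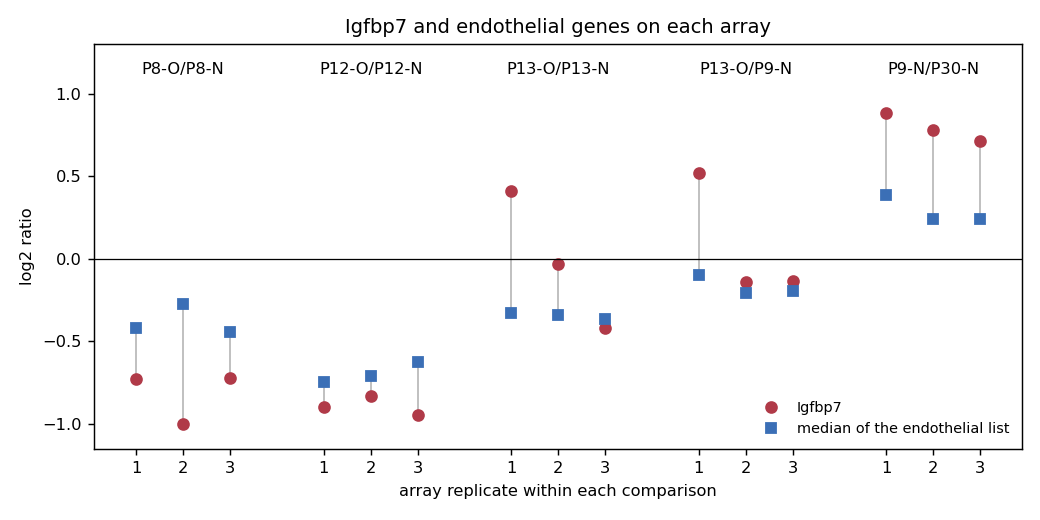
Log2 ratio of Igfbp7 (red circles) and the median log2 ratio of the measured genes of the endothelial list (blue squares) on each of the 15 arrays, joined by a grey line. Both were below 0 on every array of P8-O/P8-N and P12-O/P12-N and above 0 in P9-N/P30-N, and at P13 the list stayed between -0.37 and -0.33 while Igfbp7 ran between 0.41 and -0.42.

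Other genes of the pathway were counted on a list of 54, of which 45 were on the array. It holds further ligands and binding proteins, proteases that cut binding proteins and their inhibitors, insulin receptors and their adaptors, the phosphatidylinositol 3-kinase and Akt chain, the CCN family that shares the IGF-binding module, and proteins that bind the IGF2 messenger. In P8-O/P8-N, 0 of 35 measured genes were called. In P12-O/P12-N, 1 of 36 was higher (Pik3cb, a catalytic subunit of phosphatidylinositol 3-kinase, 0.33) and 1 was lower (Wisp1, -0.63). In P13-O/P13-N, 2 of 33 were higher and 0 were lower. In P13-O/P9-N, 4 of 38 were higher and 3 were lower, and in P9-N/P30-N, 8 of 36 were higher and 4 were lower. Of all probes tested, 0.637%, 7.08%, 1.51%, 8.5% and 33.8% were called in this order of comparisons. The share of listed genes called was thus close to that of all probes in P9-N/P30-N, and not above it in P12-O/P12-N. The genes called in these comparisons are given as values and not as a difference of the pathway. The list was counted in genes and the background in probes, and a gene can have several probes. Of the receptors, adaptors and kinases of the chain, Pik3cb at P12 was the only one called in a comparison of OIR with age-matched normal retina, and it lost the call without each of the 3 arrays (adjusted p 0.082 to 0.21).

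The pair higher at P13 was Stc2 and Ctgf. Stc2 encodes stanniocalcin 2, an inhibitor of the protease that cuts IGFBP4, and its log2 ratios were 1.10, 1.14 and 0.65 in P13-O/P13-N (mean 0.97, adjusted p = 0.013). Ctgf, a matrix-associated member of the CCN family, gave 0.66, 1.03 and 0.61 (mean 0.76, adjusted p = 0.025). The paper, which used SAM with a 1.5-fold cutoff, states that Ctgf did not change significantly at P8 or P13. Here Stc2 and Ctgf were higher on every array, and each kept its call in 1 of the 3 fits that left out an array. Fitted on the P13-O/P13-N arrays alone, each had an adjusted p of 0.17 (limma). With a replicate block the adjusted p of Ctgf was 0.0503. Both were also higher in P13-O than in P9-N, at 0.73 for Stc2 on probe mMC017842 (adjusted p = 0.018) and 0.81 for Ctgf (adjusted p = 0.0053). The other Stc2 probe, mMR027223, gave -0.08 and 0.06 on 2 arrays of that comparison. Cyr61, another CCN gene, gave 0.73, 0.85 and 0.36 there (mean 0.64, adjusted p = 0.031), and 0.76, 0.77 and 0.26 in P13-O/P13-N (mean 0.60, adjusted p = 0.13).

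Several genes of the list were called in both comparisons that hold P9-N. Igf2, the fetal IGF, gave 0.93, 0.98 and 0.84 in P9-N/P30-N (mean 0.92), and -0.26, -0.40 and -0.53 in P13-O/P9-N (mean -0.40, adjusted p = 0.019), so it was higher in P9-N than in P30-N and lower in P13-O than in P9-N. Pik3r1, the regulatory subunit of phosphatidylinositol 3-kinase, had means of 0.98 and -0.81 in the same comparisons, and Htra1, a secreted protease that cuts binding proteins, 0.62 and -0.48. Wisp1, a CCN gene, ran the other way at -1.94 in P9-N/P30-N and 1.18 in P13-O/P9-N. Igf2 and Pik3r1 were not called in any comparison of OIR with age-matched normal retina. Htra1 was not called at P8 or P12 and was not tested in P13-O/P13-N. Wisp1 was called lower at P12 (-0.48, -0.43 and -0.98, adjusted p = 0.019), which was kept in 1 of the 3 fits without an array. Both comparisons have P9-N on one side, so their opposite signs are not separate results. The further genes called in P9-N/P30-N were Eif4ebp1 (0.70), Grb2 (0.37), Igfbpl1 (0.37), Gab1 (0.34) and Shc1 (0.33, on 1 of its 3 probes), all higher, and Ctgf (-0.43), Pik3cb (-0.37) and Igf2bp1 (-0.20), all lower. Leaving out each array of P9-N/P30-N in turn kept the calls of Igf2, Pik3r1, Wisp1, Eif4ebp1, Grb2 and Igfbpl1 in all 3 fits, those of Gab1 and Pik3cb in 2, that of Shc1 in 1 and those of Ctgf and Igf2bp1 in 0, and Htra1 had values on 2 arrays. In P13-O/P9-N, Pik3r1 and Wisp1 kept their calls in all 3 fits, Igf2, Stc2, Ctgf and Cyr61 in 1, and Htra1 in 0.

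**Figure D5:**
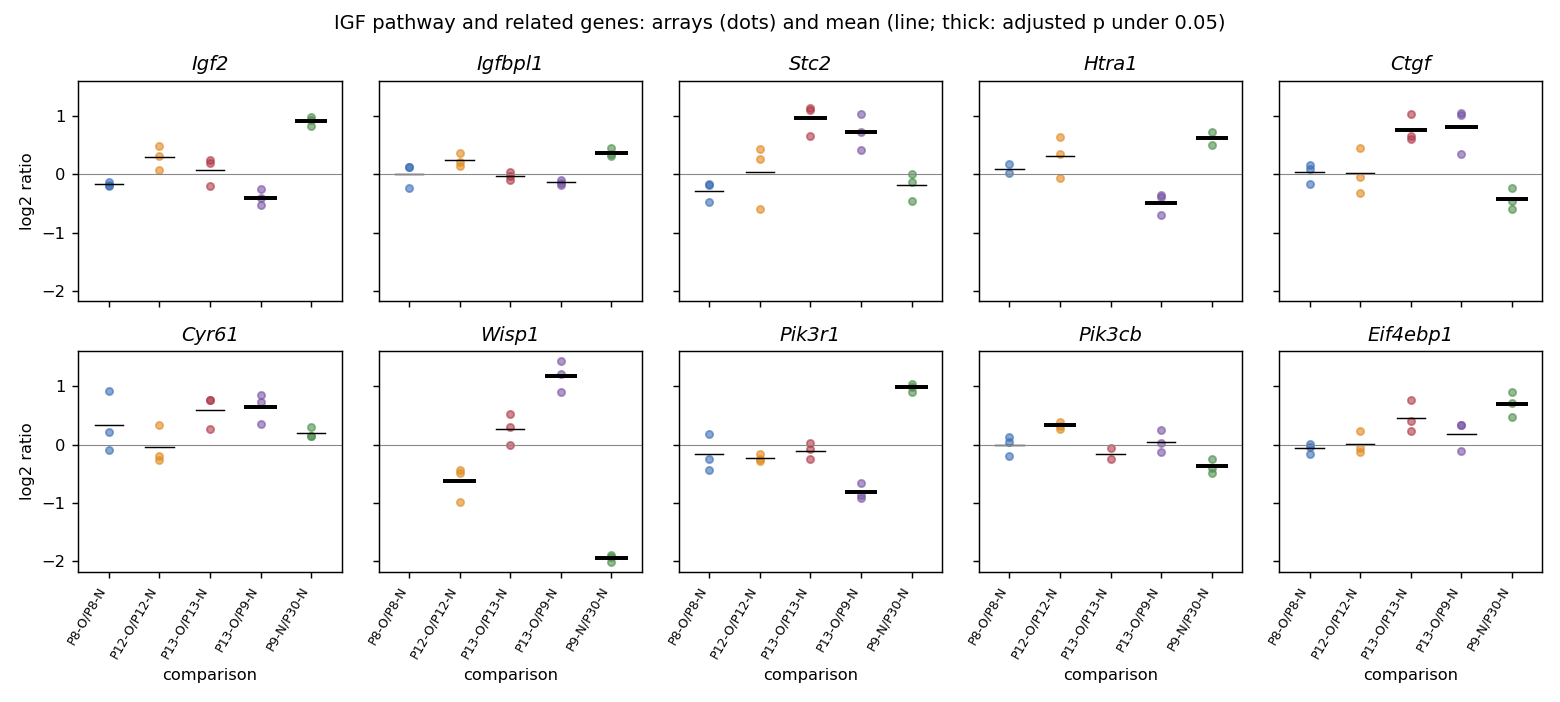
Log2 ratios of 10 IGF pathway and related genes in the 5 comparisons, with dots for arrays and lines for the mean, thick where called. Stc2 and Ctgf were above 0 on every array of P13-O/P13-N, and Igf2, Pik3r1 and Wisp1 had opposite signs in P9-N/P30-N and P13-O/P9-N.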

How the data were processed

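Paired RNA pools were hybridised to 2-colour Phalanx Mouse OneArray slides with the dyes exchanged. The deposited values are log2 ratios normalized by the authors, with 1 value per probe and array. The normalization, background correction, joining of the dye orientations and rule for blanks are not given in the sources used here. Ratios were taken as channel 2 over channel 1, which gives OIR over normal retina, and those of P30 over P9 were inverted. The direction was checked on some of the genes for which the study prints ratios, not on all of them. It gave the printed sign for 11 of 11 of these genes at P8, 14 of 14 at P13 and 11 of 11 for P9 over P30. Where a gene had several probes, the one with the largest absolute mean was used. P12 was not checked in this way. For P13-O/P9-N the study prints no ratios, and the mean ratios correlated at r = -0.638 with P9-N/P30-N.

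All 15 arrays entered 1 linear model (limma 3.58.1, R 4.3.3) with a coefficient for each comparison, which was tested against 0 where 2 or more arrays had a value. Differences between comparisons were contrasts of this fit. p was adjusted by Benjamini-Hochberg over all probes tested, with a threshold of 0.05. An exact sign test on 3 arrays cannot go below p = 0.25. Alternatives were a 1.5-fold cutoff, centring, scaling, array weights, complete values, separate fits, a replicate block, leaving out each array, and SAM, the tool the study used, at a 1% false discovery rate set here. The number of arrays limits the precision. The fit was tested on simulated data. All member probes were described, pathway genes were named where called, and the 3 genes most like a member by Pearson's r were named for members with a called probe valued on all arrays. Members and gene lists were chosen with earlier results of these data known. Promoters are from RefSeq (GRCm38.p6).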

Additional observations from a re-analysis of the deposited data

Results flagged for a closer look

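For 4 probes the ratio differed between comparisons when the difference itself was tested (limma contrasts, 3 arrays each). Igfbp2 differed by 0.73 between P13-O/P13-N and P8-O/P8-N, being higher on 3 of 3 arrays at P13 and lower on 3 of 3 at P8 (adjusted p = 0.048). The Igfbp5 probes differed by 0.82 (mMC019359, adjusted p = 0.011) and 0.78 (mMR030084, adjusted p = 0.038) between the same comparisons. In this contrast 3 of 7 member probes were called, against 1.5% of all probes. Igfbp7 differed by 0.88 between P13-O/P13-N and P12-O/P12-N (adjusted p = 0.038), where 1 of 8 member probes was called, against 2.55% of all probes. For P13-O/P13-N minus P9-N/P30-N it differed by -0.80 (adjusted p = 0.011), with means of -0.01 and 0.79. There 1 of 7 member probes was called, against 21% of all probes, so the members were not called more often than other probes.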

How the results depend on the processing

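Of 717 member values refitted, 634 kept their direction and their side of the threshold, 56 lost the call, 6 gained one, and 21, none of them called in either fit, changed sign. Called member probes numbered 1 of 7 in P8-O/P8-N, 2 of 9 in P12-O/P12-N, 2 of 8 in P13-O/P13-N, 5 of 12 in P13-O/P9-N and 3 of 7 in P9-N/P30-N. A 1.5-fold cutoff left 1 at P12, 0 at P13, 3 in P13-O/P9-N and 1 in P9-N/P30-N. Fits on each comparison's own arrays left 0 at P8, 1 at P12, 0 at P13 and 3 in P13-O/P9-N. SAM left 0 at P8, 1 at P12, 1 at P13 and 1 in P13-O/P9-N, and with the fold cutoff 0, 1, 0 and 1, and 1 in P9-N/P30-N. Leaving out 1 array gave 0 at P8, 1 at P12, 0 to 1 at P13, 0 to 2 in P13-O/P9-N and 2 to 3 in P9-N/P30-N. Scaling arrays to the same spread left 1 at P12.

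Over 30 pairs of same-numbered arrays, the deviations from the comparison means correlated at -0.187 to 0.208, and 5 were over 0.1. The highest was that of P13-O/P13-N with P13-O/P9-N for replicate 1. Replicates 2 and 3 of these comparisons gave -0.034 and 0.191. The arrays of these comparisons may share P13-O pools, for which the fit has no term. With a replicate block, 3 of 9 probes tested were called in P13-O/P9-N.

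Between P13-O/P13-N and P8-O/P8-N, 3 probes were called, 0 in the separate fit and 0 to 3 without 1 array. Between P13-O/P13-N and P12-O/P12-N, 1 was called, 0 in the separate fit, and 0 to 1 without 1 array. For P13-O/P13-N minus P9-N/P30-N, 1 was called, 2 with array weights and 0 after scaling.

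Without 1 array the following uncalled means changed sign. Igf1r mMC024245 ran from -0.28 to 0.10 in P8-O/P8-N, -0.0039 to 0.17 in P13-O/P13-N, -0.030 to 0.20 in P13-O/P9-N, -0.019 to 0.37 in P13-O/P13-N minus P8-O/P8-N and -0.17 to 0.0037 in P13-O/P13-N minus P9-N/P30-N. Igfbp4 mMC021232 ran from -0.040 to 0.090 in P8-O/P8-N. Igf1r mMC009262 ran from -0.066 to 0.088 in P12-O/P12-N and -0.16 to 0.0028 in P9-N/P30-N. Igfbp2 ran from -0.24 to 0.014 in P12-O/P12-N and -0.14 to 0.13 in P13-O/P9-N. Igfbp5 mMC019359 ran from -0.082 to 0.11 in P12-O/P12-N and -0.026 to 0.13 in P13-O/P13-N minus P9-N/P30-N. Igfbp7 ran from -0.23 to 0.19 in P13-O/P13-N and -0.14 to 0.19 in P13-O/P9-N. With array weights Igfbp7 changed sign in P13-O/P9-N (-0.026) and in P12-O/P12-N minus P8-O/P8-N (0.0079), and after scaling again in that contrast (0.071), as did Igfbp5 mMC019359 in P12-O/P12-N (-0.0064). The causes were not tested.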
